A study of Arabidopsis thaliana with 12 samples.

Results

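In seedling roots of Arabidopsis thaliana, 58 of 22746 probe sets were lowered by chitin while neither of the other elicitors tested lowered them to a comparable degree. They were chosen on group means of log2 intensity: a control mean of at least 5, chitin minus control of at most -0.7, and both cellobiose minus control and OGs minus control of at least -0.3. AT2G26690, xyloglucan endotransglucosylases, pectin methylesterases and class III peroxidases were to be left out, and this removed none of the probe sets that could be named. In the probe annotation 31 of the 58 stood for exactly 1 gene, 3 for several genes and 24 were not listed, so those 24 could not be checked against the genes to be left out. The levels and differences used for this choice are given below as a description, and nothing is supported by them.

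The study exposed 7-day-old Col-0 seedlings for 3 h to chitin (chito-oligomers in the design text), to cellobiose or to OGs (oligogalacturonides), or left them without an elicitor as the control. Roots were separated from shoots by a nylon mesh, and each RNA sample came from a disc of many pooled seedlings, so variation between single plants was not measured. Each of the 4 groups had 3 biological replicates with 1 ATH1 array each, 12 arrays in all, and all groups shared genotype, age, time and tissue. The sources used here do not give the doses.

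Chitin oligomers are fragments of fungal cell walls that plants perceive through receptor kinases with LysM domains at the plasma membrane, which start defence signalling. Cellobiose is a fragment of cellulose and OGs are fragments of pectin, so both report damage to the plant's own wall. Transcripts that fall after an elicitor have often been linked with growth, photosynthesis and specialised metabolism, and roots make specialised products such as the triterpene thalianol, whose genes lie partly together in the genome.

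Few marker genes could be read on these arrays, since 4 of 44 listed markers had a probe set with 1 gene. The root-hair expansins EXPA7 and EXPA18 averaged log2 9.03 to 9.59 on single arrays, and the stomatal regulator FMA stayed at 3.72 to 4.13, under the level of 5 that was taken as dim. Rubisco activase (RCA), a leaf gene, was nevertheless bright, at 10.61 to 11.42 on the control arrays, 8.58 to 9.81 after chitin, 8.99 to 10.05 after cellobiose and 9.12 to 10.45 after OGs. RCA fell by 1.75 ± 0.36 after chitin (SE, limma adjusted p = 0.00966), a call just missed without chitin replicate 2 (adjusted p = 0.0509). EXPA18 was at -0.38 ± 0.11 (adjusted p = 0.0467), which missed the threshold without any 1 of 9 arrays (adjusted p up to 0.192), and EXPA7 at 0.07 ± 0.12 (adjusted p = 0.816). The part of shoot tissue or of root-hair RNA in the differences described below was not tested. In RNA of whole roots, fewer cells of a type and less RNA per cell cannot be told apart.

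Chitin lowered 534 probe sets with a control mean of at least 5 by 0.7 or more. For 377 of them both cellobiose and OGs lay under -0.3, for 57 only OGs did and for 42 only cellobiose did, which left the 58 (10.9%). Most transcripts lowered by chitin were lower after the damage-type elicitors too. After all 3 elicitors 159 were lowered by at least 0.7. Unlike the 534, this count leaves out the genes that the rule leaves out. The 3 comparisons share the same control arrays.

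**Figure D1:**
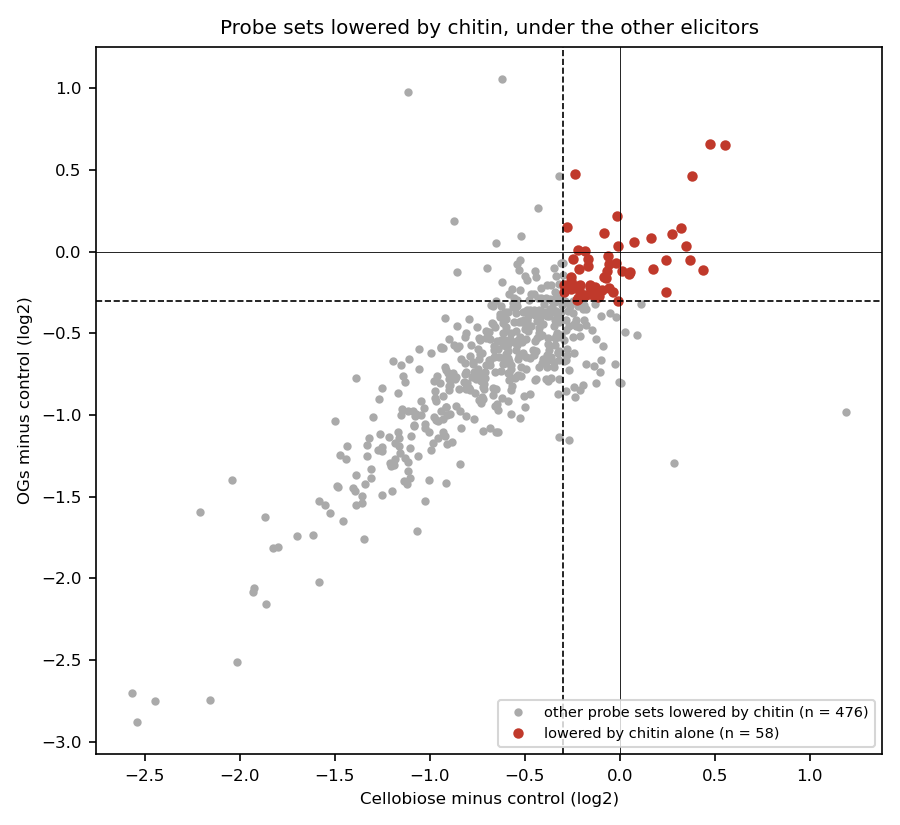
Each point is 1 of the 534 probe sets lowered by chitin, placed by its log2 difference between cellobiose and control (horizontal) and between OGs and control (vertical). Dashed lines mark the limit of -0.3 on each axis; the 58 red points lie above and to the right of both, as the rule requires, and most of the 476 grey points lie below and to the left.

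Within the 58 the median difference between chitin and control was -0.81, from -1.69 to -0.70, beside a median of -0.03 over all probe sets. Cellobiose minus control had a median of -0.10 (-0.30 to 0.55) and OGs minus control one of -0.13 (-0.30 to 0.66). Both other elicitors lay above the control for 8 probe sets and both below it for 35, so the larger share was slightly lower after all 3 elicitors and clearly lower after chitin. In limma's fit with Benjamini-Hochberg adjustment 50 of the 58 were called lower after chitin at an adjusted p under 0.05, where 5.94% of all probe sets were, and nothing is read from this count because the rule used that contrast. The count was 35 to 54 with each array left out in turn and 32 with only these 2 groups in the fit. Against cellobiose 41 were called lower (2.51% of all probe sets) and against OGs 31 (1.42%), and with each array left out in turn these counts ran from 22 to 46 and from 15 to 44. The rule holds both of these differences below 0 in every one of the 58, so nothing is read from these counts either. None was called between cellobiose and control (2.27% of all probe sets in either direction) or between OGs and control (2.65%), which the rule holds within limits from below.

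The chitin arrays lay below all 3 control arrays for 52 of the 58 (15.0% of all probe sets) and below all 9 other arrays for 47 (4.04%). Within each replicate number chitin was under the control for 55 (23.1%). Of the 31 genes with a name, 25 had all chitin arrays below the other 9. The 3 chitin arrays did not take part equally: chitin replicate 2 was the lowest of them for 51 of the 58 (87.9%). Among all probe sets called lower after chitin the share was 65%, and among all probe sets tested it was 32.8%. Relative to the control mean the median of the 58 was -0.75 on chitin replicate 1, -1.08 on replicate 2 and -0.65 on replicate 3. Without chitin replicate 2 their median difference was -0.68, from -1.59 to -0.29, which is short of the limit for many. Probe sets called higher after chitin were highest on replicate 2 in 63.2% of cases, for which the share over all probe sets was not counted. The 3′ minus 5′ difference of the GAPDH control probe sets, a measure of RNA integrity, was 0.658 on that array, 0.861 and 0.691 on the other chitin arrays and 0.729 to 0.835 on the control arrays. It was 0.368 to 0.586 on the cellobiose arrays and 0.357, 0.540 and 1.46 on OGs replicates 1, 2 and 3. OGs replicate 3 thus stood apart from the other 11. For the actin control probe sets the same difference was larger on every array, from 3.35 on control replicate 1 to 4.03 on OGs replicate 3. Without OGs replicate 3 the rule chose 57 probe sets, 52 of them among the 58. Calls between chitin and OGs among the 58 were then 20 in place of 31. The part of RNA integrity in the results was not tested.

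**Figure D2:**
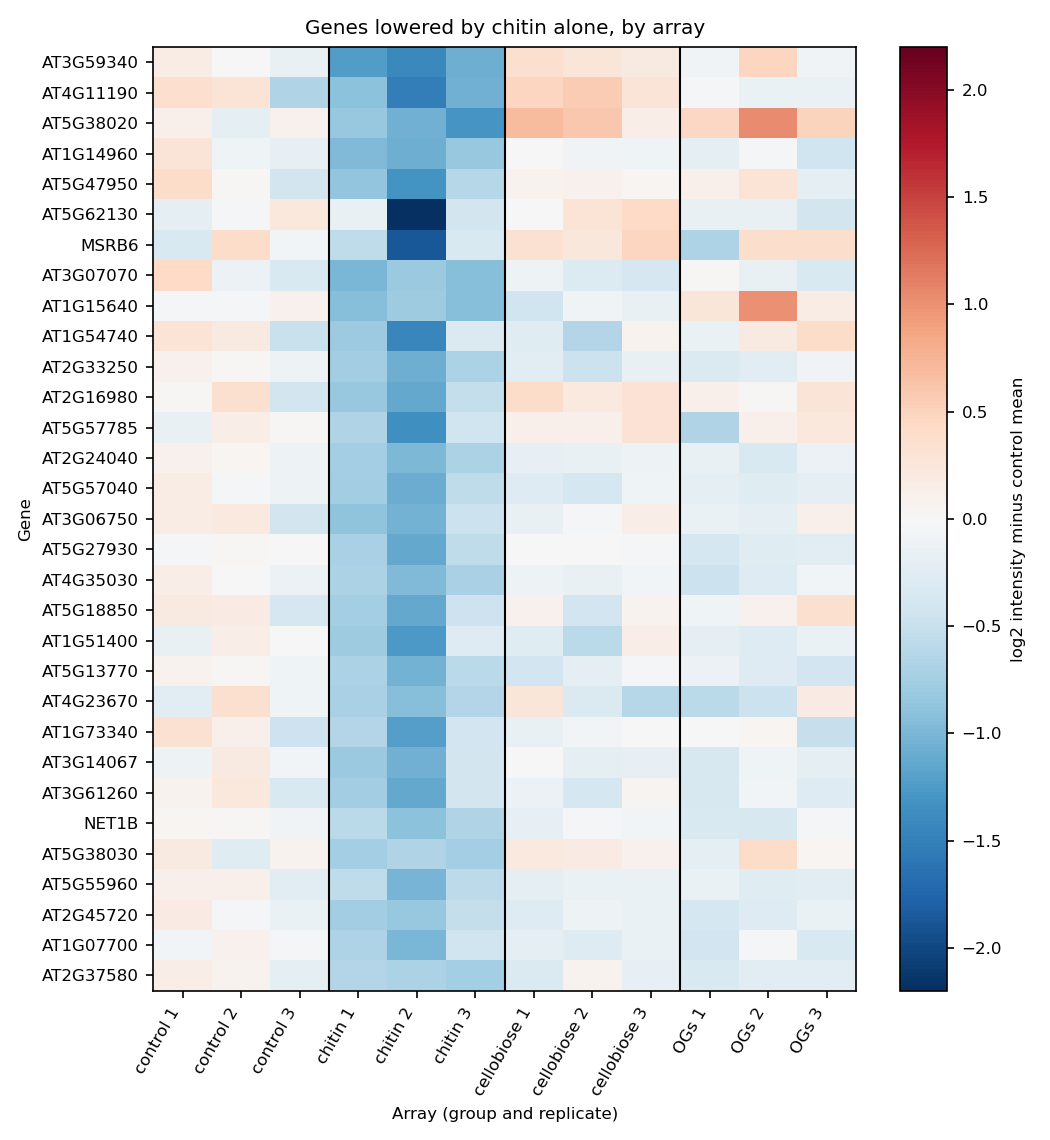
Rows are the 31 named genes in order of their difference between chitin and control, columns are the 12 arrays, and colour is the log2 intensity minus the gene's control mean. The block of 3 chitin columns is blue for nearly every gene, darkest on replicate 2, while the cellobiose and OGs columns stay near the control apart from a few red cells such as AT5G38020 and AT1G15640 on OGs replicate 2.

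Among the named genes, the one lowered most was AT3G59340, which encodes a putative solute carrier. Its log2 intensity was 7.77, 7.61 and 7.44 on the control arrays, 6.38, 6.20 and 6.53 after chitin, 7.97, 7.87 and 7.80 after cellobiose and 7.54, 8.08 and 7.54 after OGs. All chitin arrays lay at least 0.91 below every other array, and cellobiose lay above the whole control range. The difference between chitin and control was -1.24 ± 0.15 (SE), a 2.36-fold lower level. Of the transport-related genes, AT5G38030, a carrier of the MATE efflux family, went from 9.51 ± 0.23 to 8.79 ± 0.05 (SD, n = 3) after chitin, with cellobiose at 0.16 and OGs at 0.09 relative to the control. AT2G16980, of the major facilitator family of transporters, was at 7.09, 7.42 and 6.66 on the control arrays, 6.22, 5.94 and 6.53 after chitin, 7.47, 7.28 and 7.38 after cellobiose and 7.17, 7.09 and 7.34 after OGs. The chitin arrays of AT2G16980 were again the lowest, but only 0.13 separated the highest of them from control replicate 3.

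AT4G11190 encodes a dirigent protein, a class that steers the coupling of phenoxy radicals in lignan and lignin synthesis. It read 10.49, 10.42 and 9.45 on the control arrays, 9.21, 8.60 and 9.07 after chitin, 10.59, 10.67 and 10.41 after cellobiose and 10.07, 9.97 and 9.97 after OGs. Chitin lay below all other arrays, and control replicate 3 lay far under the other controls, beneath every cellobiose and OGs array. The difference was -1.16 ± 0.21 (SE), or 2.23-fold.

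AT5G38020, a methyltransferase of the SABATH family, which methylates small acids such as salicylic and jasmonic acid, lay below the control after chitin and above it after the other elicitors, one of 8 such probe sets among the 58. Control arrays gave 8.31, 7.97 and 8.28, chitin arrays 7.36, 7.14 and 6.90, cellobiose arrays 8.88, 8.78 and 8.33 and OGs arrays 8.64, 9.23 and 8.68. Every chitin array was below every control array, and every cellobiose and OGs array was above them. Relative to the control the differences were -1.05 ± 0.17 after chitin, 0.47 ± 0.17 after cellobiose and 0.66 ± 0.17 after OGs (SE), so OGs stood 3.28-fold above chitin. Neither difference above the control was called (limma adjusted p = 0.198 for cellobiose and 0.0766 for OGs). AT5G38030, the MATE carrier above, is the next gene along the chromosome, and this was the only pair of neighbouring genes among the 31.

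AT1G14960 and AT4G23670 encode major latex proteins, small Bet v 1-type proteins thought to bind hydrophobic ligands. AT1G14960 gave 11.34, 10.96 and 10.88 on the control arrays, 10.09, 9.99 and 10.22 after chitin, 11.07, 10.99 and 10.97 after cellobiose and 10.87, 11.03 and 10.62 after OGs. The 3 chitin values were close together and at least 0.40 below the rest, 1.94-fold under the control mean. AT4G23670 had a difference of -0.77 ± 0.26 (SE), which was not called (limma adjusted p = 0.0902). Its chitin arrays cleared the lowest other array by 0.03, and the rule chose it in 6 of the 12 cases with an array left out.

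AT5G47950 encodes an acyltransferase of the BAHD family in the thalianol gene cluster. It read 9.10, 8.73 and 8.29 on the control arrays, 7.84, 7.39 and 8.08 after chitin, 8.78, 8.80 and 8.75 after cellobiose and 8.81, 9.00 and 8.48 after OGs. The chitin arrays were the 3 lowest of the 12, while cellobiose and OGs fell within the control range. The difference between chitin and control was -0.94 ± 0.21 (SE), or 1.91-fold, and the other elicitors stood at 0.07 and 0.06.

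**Figure D3:**
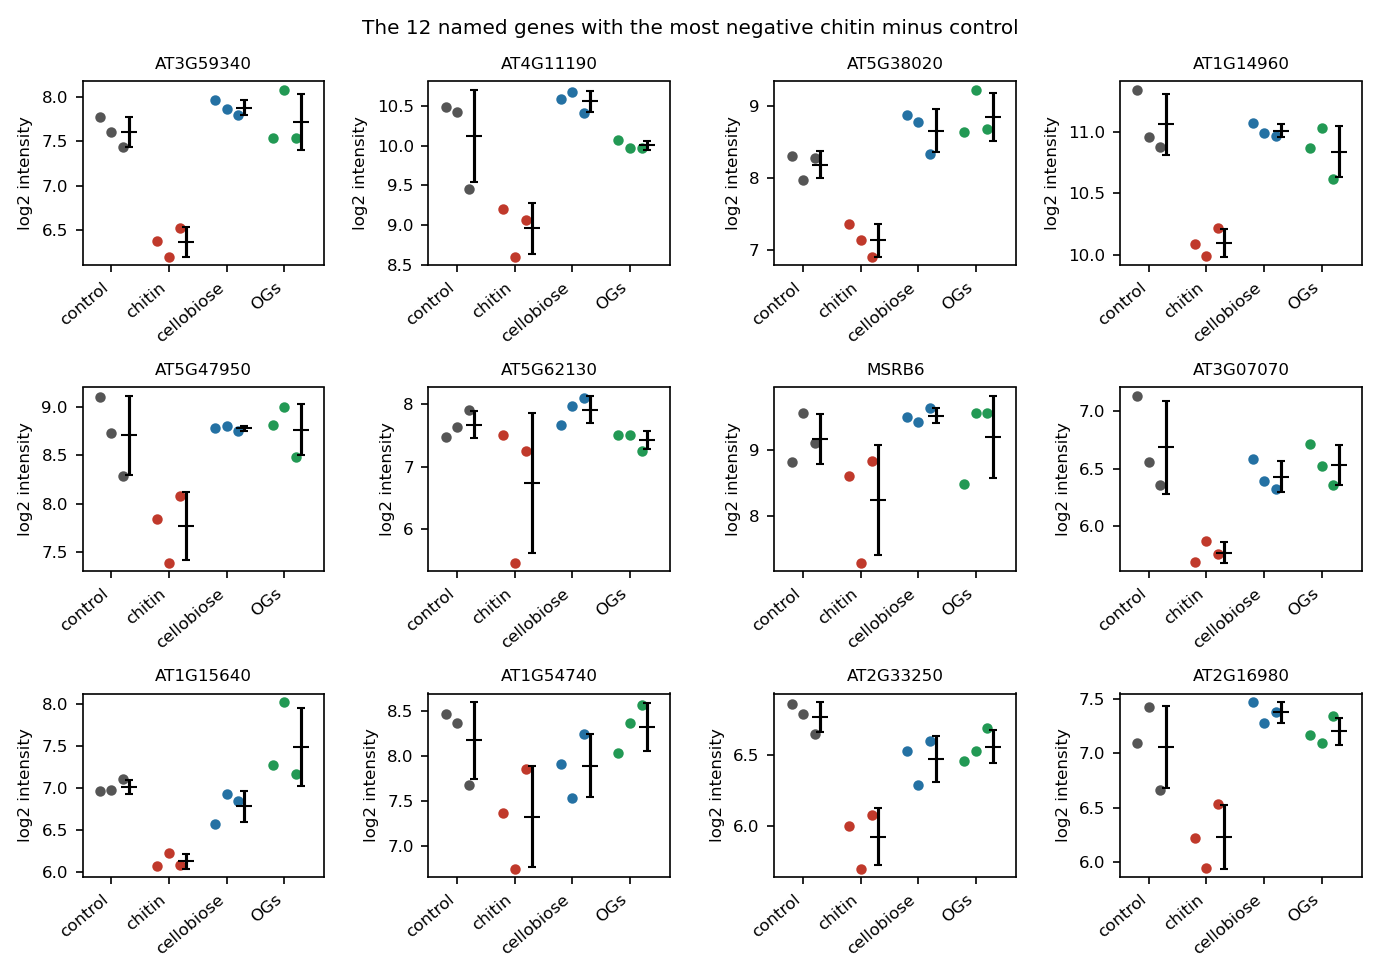
Log2 intensity (vertical, a separate range in each panel) of the 12 named genes with the most negative difference between chitin and control, 1 point per array, with the group mean and SD (bars, n = 3) beside the points. Chitin is lowest in most panels; in those of AT5G62130 and MSRB6 only chitin replicate 2 is far down.

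In 3 of the leading genes the chitin arrays spread widely. AT5G62130, a Per1-like protein of the class that remodels lipid anchors, was at 7.47, 7.64 and 7.90 on the control arrays and 7.50, 5.46 and 7.26 after chitin. MSRB6, a methionine sulfoxide reductase that repairs oxidised proteins, was at 8.82, 9.56 and 9.10 on the control arrays and 8.60, 7.29 and 8.83 after chitin. AT1G54740 was at 8.47, 8.37 and 7.68 on the control arrays and 7.37, 6.74 and 7.86 after chitin.

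In all 3 genes the highest chitin array lay above the lowest control array, so the groups overlapped. On the cellobiose arrays AT5G62130 read 7.67, 7.97 and 8.10, MSRB6 9.49, 9.41 and 9.63 and AT1G54740 7.91, 7.53 and 8.24. On the OGs arrays they read 7.51, 7.50 and 7.26, 8.48, 9.55 and 9.55, and 8.03, 8.37 and 8.57. With all arrays the differences between chitin and control were -0.93 ± 0.38, -0.92 ± 0.37 and -0.85 ± 0.28 (SE), and none of these genes was called. Without chitin replicate 2 the mean differences were -0.29 for AT5G62130, -0.44 for MSRB6 and -0.56 for AT1G54740. AT1G54740 was called without control replicate 3 or chitin replicate 3 (adjusted p down to 0.00192), and AT5G62130 without chitin replicate 1 (0.0428). Nothing is read from these calls, because the rule used chitin minus control.

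Signalling genes among the 31 included the protein kinase genes AT3G07070 and AT4G35030 and the phosphatase gene AT5G27930, of a clade of PP2C phosphatases that regulate growth. AT3G07070 read 7.13, 6.56 and 6.36 on the control arrays, 5.69, 5.87 and 5.76 after chitin, 6.58, 6.39 and 6.32 after cellobiose and 6.71, 6.52 and 6.36 after OGs. Here chitin replicate 2 was the highest chitin array, and the chitin arrays still lay 0.45 under the lowest of the rest. AT4G35030 went from 8.80 ± 0.14 to 8.01 ± 0.15 (SD, n = 3). AT5G27930 went from 8.53 ± 0.04 to 7.73 ± 0.29, and its OGs mean was 0.30 under the control, the closest of the 58 to that limit.

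AT1G15640 and AT2G33250 are given without a role. AT1G15640 read 6.96, 6.97 and 7.11 on the control arrays, 6.07, 6.23 and 6.08 after chitin, 6.57, 6.93 and 6.84 after cellobiose and 7.27, 8.02 and 7.17 after OGs, so the groups ran in the order chitin, cellobiose, control, OGs with no overlap between neighbours. AT2G33250 read 6.86, 6.79 and 6.65 on the control arrays, 6.00, 5.70 and 6.08 after chitin, 6.53, 6.29 and 6.60 after cellobiose and 6.46, 6.53 and 6.69 after OGs. Its chitin arrays were the lowest, and its cellobiose mean lay 0.296 under the control, just inside the limit.

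The remaining named genes had differences between chitin and control of -0.70 to -0.82. AT2G24040, a small membrane protein of the salt- and cold-responsive RCI2 type, had the smallest SE of the named genes, at -0.81 ± 0.09, with cellobiose at -0.15 and OGs at -0.21. The remorin AT3G61260, a plasma-membrane nanodomain protein, was at -0.76 ± 0.20, and NET1B, which links actin filaments to membranes, at -0.72 ± 0.11. AT3G06750, a hydroxyproline-rich glycoprotein, was at -0.79 ± 0.19.

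AT1G51400, a small photosystem II protein, was at -0.78 ± 0.17, with the chitin arrays at 6.96, 6.48 and 7.45 overlapping the cellobiose arrays. It moved in the same direction as the leaf gene RCA, whose part in this was not tested. The pentatricopeptide repeat gene AT5G13770 had a chitin mean of 4.83, in the dim range, so that its level fell by at least 0.60. The cytochrome P450 gene AT1G73340 (-0.76 ± 0.23, not called, its chitin and control arrays overlapping), the subtilisin-type protease gene AT3G14067 (-0.76 ± 0.15), the glyoxalase-type gene AT5G57040 (-0.81 ± 0.11) and the thioredoxin-family gene AT1G07700 (-0.70 ± 0.14) had cellobiose and OGs values of -0.07 to -0.26 relative to the control.

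The RING-type ubiquitin ligase gene AT2G37580 (-0.70 ± 0.11) was the closest to the chitin limit, and the armadillo-repeat gene AT2G45720 was at -0.71 ± 0.11. AT5G57785 was at -0.82 ± 0.22, AT5G18850 at -0.78 ± 0.21 and AT5G55960 at -0.72 ± 0.13. The rule used chitin minus control, so the calls in that contrast are again only a description. Of the 26 named genes called, 18 kept the call with each array left out in turn. The other 8 were AT5G57785, which lost it in 8 of the 12 cases, AT3G61260 and AT5G18850 (5 each), AT5G47950, AT2G16980 and AT3G06750 (4 each), AT1G51400 (2) and AT5G38030 (1), with adjusted p up to 0.161. Most of these losses came without control replicates 1 or 2 or chitin replicates 1 or 2. Among the unlisted probe sets, 248729_at had the most negative value of all 58, at -1.69 ± 0.23, or 3.23-fold, followed by 263183_at (-1.13 ± 0.15) and 248727_at (-1.11 ± 0.17). The last of these stood at 0.38 after cellobiose and 0.46 after OGs. Just outside the limits were 259976_at (chitin -0.696), AT1G62770 (cellobiose -0.301, chitin -1.70) and 260053_at (OGs -0.304).

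The difference between OGs and cellobiose was not used in the choice and could be tested, although the shared lower limit narrows it. No probe set of the 58 was called in limma's fit, where 1.31% of all probe sets were, and 3 (5.17%) had an unadjusted p under 0.05, against 12% of all probe sets. The median difference was -0.06, beside -0.01 over all probe sets, and OGs lay above cellobiose for 22 of the 58 (37.9%, against 47.7% of all probe sets). The arrays of the 2 groups did not overlap for 8 of the 58, and for 19.1% of all probe sets. AT1G15640 had the largest difference, OGs being higher by 0.71 ± 0.16 (SE, 95% interval 0.37 to 1.06, limma adjusted p = 0.0586), with all OGs arrays above all cellobiose arrays. It was called with quantile normalization, with median centring, and without control replicate 2, control replicate 3 or OGs replicate 3. AT4G11190 lay on the opposite side, OGs minus cellobiose being -0.55 ± 0.21 (95% interval -1.03 to -0.08, adjusted p = 0.336), and it was called with only these 2 groups in the fit. For AT5G38020 the interval of the difference ran from -0.20 to 0.57 and for AT3G59340 from -0.50 to 0.17, and differences within these ranges could not be told from 0.

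Relatives of the lowered genes that the rule did not choose were also compared with the control. The rule was applied to them too, and a relative that met its limits would be among the 58. The counts of relatives called are therefore a description. Many relatives were dim, where a fall could hardly be seen. With the chosen genes included, 14 of 32 MATE and 27 of 42 BAHD genes reached a mean of 5 in any group. So did 8 of 15 major latex, 9 of 15 dirigent and 2 of 16 SABATH genes. Of 13333 genes with a probe set of their own, 9.36% were called after chitin and 4.81% were called lower. The thalianol pathway could be read through 3 of 14 listed triterpene genes, those with a probe set of 1 gene in the annotation. Of these 3, AT5G47950 is one of the 58. The other listed genes may lie among the probe sets that the annotation does not list, also among the 24 unlisted ones of the 58. AT1G66800, a short-chain reductase of that pathway, read 8.75, 8.17 and 8.04 on the control arrays, 8.11, 7.66 and 7.52 after chitin, 8.72, 8.60 and 8.36 after cellobiose and 9.11, 9.13 and 8.87 after OGs. The chitin arrays overlapped the control arrays across replicate numbers but were lower within each, and the OGs arrays were above all controls. AT1G66800 fell by 0.56 ± 0.11 after chitin (SE, adjusted p = 0.00774) and rose by 0.72 ± 0.11 after OGs (adjusted p = 0.00793). Chitin minus OGs was -1.27 ± 0.11 (adjusted p = 0.000102), and AT1G66800 kept these 3 calls with each array left out in turn. All of these fits kept the replicate number as a block, although the numbers did not clearly pair the arrays. Within groups the SD was 0.37 in the control and 0.31 after chitin (n = 3). The small SE, and with it the call after chitin, may therefore rest on the block.

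AT5G47980, another acyltransferase gene of the cluster, was at 9.90 ± 0.30 in the control, 9.43 ± 0.29 after chitin, 10.32 ± 0.15 after cellobiose and 10.37 ± 0.32 after OGs (SD, n = 3). It differed from the control by -0.47 ± 0.17 after chitin (SE, adjusted p = 0.126), 0.42 after cellobiose and 0.47 after OGs, none of them called, and it was lower after chitin than after OGs by a called difference of -0.94 ± 0.17 (adjusted p = 0.0134). Leaving out OGs replicate 1 or OGs replicate 2 ended that call (adjusted p up to 0.0775).

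**Figure D4:**
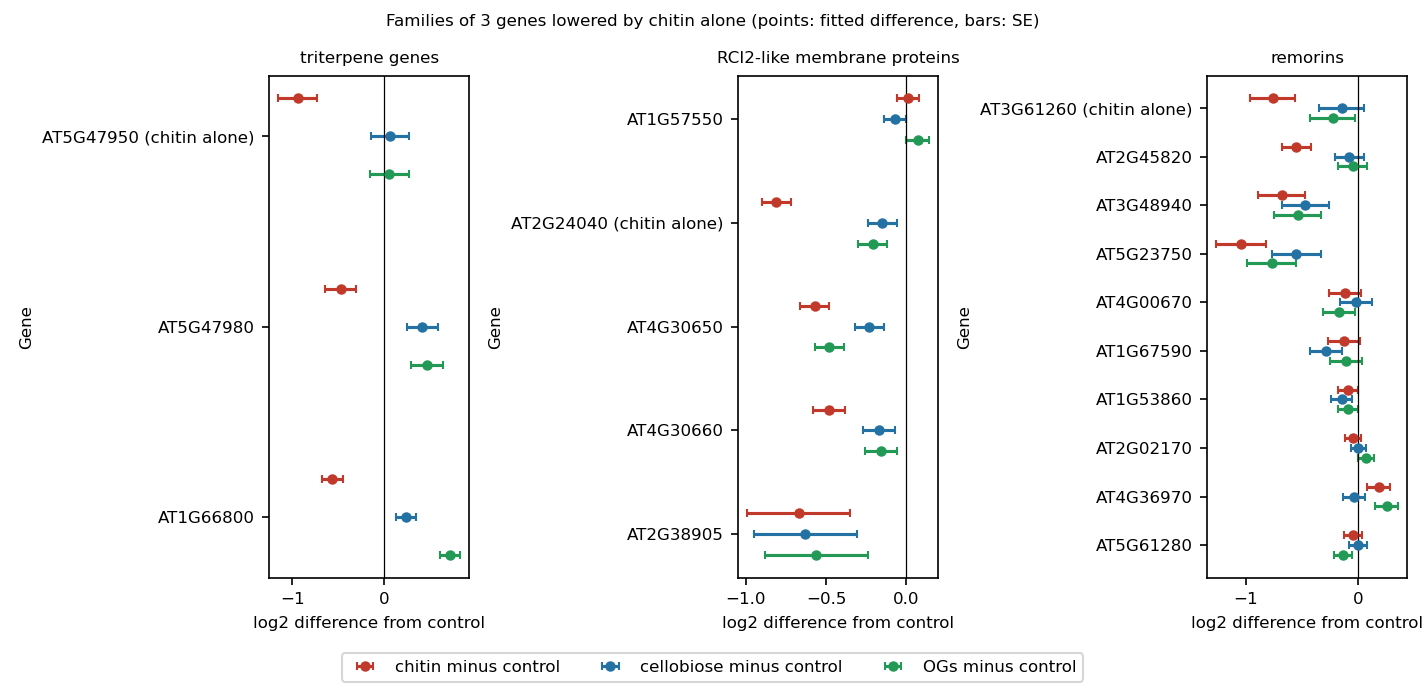
Fitted log2 difference from the control (points) with its SE (bars) for the measured triterpene genes, RCI2-like membrane proteins and remorins, in red after chitin, blue after cellobiose and green after OGs; genes chosen as lowered by chitin alone are marked. The triterpene genes lie left of 0 after chitin and right of it after cellobiose and OGs, while the remorins other than AT3G61260 spread from -1.04 to 0.18 after chitin.

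Among the RCI2-like proteins 2 of the 4 others measured were called lower after chitin and none higher. AT4G30650 fell by 0.57 ± 0.09 (SE, limma adjusted p = 0.0019) and also fell after OGs, by 0.48 (adjusted p = 0.0189), and the OGs call was lost without control replicate 1, control replicate 3 or OGs replicate 1 (adjusted p up to 0.0716). AT4G30660 fell by 0.48 ± 0.10 (adjusted p = 0.0101), but was no longer called once control replicate 1 was left out (adjusted p = 0.0523). Remorins had 2 of 9 others called lower and none higher. AT5G23750 fell by 1.04 ± 0.22 (adjusted p = 0.0106) and AT2G45820 by 0.55 ± 0.13 (adjusted p = 0.018), and both calls were lost without control replicate 1, control replicate 2, chitin replicate 1 or chitin replicate 2, with adjusted p up to 0.0583 and 0.0979. AT2G45820 stood at -0.08 after cellobiose and -0.05 after OGs, and AT5G23750 at -0.55 and -0.77, neither called.

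In the dirigent family 1 of 14 others was called lower and 3 higher after chitin. AT1G58170 fell by 0.98 ± 0.15 (SE, limma adjusted p = 0.00224), whereas AT1G22900, dim in the control, rose by at least 0.67 (adjusted p = 0.0093) and AT3G13650 rose by 0.69 (adjusted p = 0.0016). The third, AT2G21100, rose by 0.45 (adjusted p = 0.0409), a call lost without any 1 of 8 arrays, with adjusted p up to 0.19: control replicates 1, 2 and 3, chitin replicates 1, 2 and 3, cellobiose replicate 3 and OGs replicate 2. After the other elicitors AT1G58170 was at -0.61 for cellobiose (adjusted p = 0.0717) and -0.69 for OGs (adjusted p = 0.0452, not called without any 1 of 9 arrays, up to 0.155). AT1G22900 was called higher after OGs (adjusted p = 0.0394, not called without any 1 of 6 arrays, up to 0.168). AT2G21100 rose by 1.02 after cellobiose (adjusted p = 0.00201), a call that no single array ended, and AT3G13650 was at 0.03 after cellobiose and 0.40 after OGs, neither called.

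Of the other major latex proteins 1 of 13 was called lower, AT4G23680, which lies beside AT4G23670, at -1.96 ± 0.55 (limma adjusted p = 0.0463). It was also at -1.07 after cellobiose and -1.71 after OGs, neither called, and chitin minus OGs was -0.25 (adjusted p = 0.892). That call was lost without control replicate 2 or 3, any chitin replicate, cellobiose replicate 1 or 2, or OGs replicate 3, with adjusted p up to 0.201. In the SABATH family 0 of 15 others were called lower and 1 higher, AT3G44840, which was dim in both groups. Only 2 of the 16 SABATH genes measured reached a mean of 5 in any group, AT5G38020 and AT5G37990. The absence of lower calls therefore says little about the others. The BAHD family had 4 of 41 lower and 1 higher, from AT2G40230 (-1.43 ± 0.18, adjusted p = 0.000497) to AT5G42830 (2.52 ± 0.20, adjusted p = 2.02e-05). The remaining gene called lower, AT2G25150, was dim in both groups. AT1G78990, dim after chitin and lower by at least 0.67, and AT3G50300 (-0.45) lost their calls without control replicate 1, control replicate 2 or chitin replicate 2, the first also without chitin replicate 1 and the second also without chitin replicate 3 or cellobiose replicate 3, with adjusted p up to 0.125 and 0.168.

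The MATE family had 1 of 31 others lower and 2 higher, AT5G52450 (0.52) and AT1G15170 (0.58). AT5G52450 lost its call without control replicate 2, control replicate 3, chitin replicate 1 or chitin replicate 2, with adjusted p up to 0.0641. The MATE gene called lower, AT5G65380 (-0.56), lost its call without control replicate 1 or chitin replicate 2, with adjusted p up to 0.0666. None of the other clade E phosphatases (2 measured), methionine sulfoxide reductases B (3) or NET proteins (3) was called.

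Position in the genome was compared through the order of genes in RefSeq's TAIR10.1 annotation. Within 3 genes on either side of the 31 named genes 72 neighbours were measured, with a median difference between chitin and control of -0.06. Named genes were not themselves counted as neighbours. Among all 13333 genes with a probe set of their own 4.81% were called lower. Of the neighbours 5 (6.94%) were called lower and 2 higher, and the share was not tested against that of all genes. The 5 were AT4G23680, AT1G07680 (dim after chitin, lower by at least 0.35), AT5G47940 (-0.41), AT5G62140 (dim in both groups) and AT2G24020 (-0.31), and of these only AT1G07680 kept its call with each array left out in turn. The 5 became 1 without chitin replicate 1 or chitin replicate 2, 2 without control replicate 2 and 3 without any 1 cellobiose array. The tandem relatives of AT1G14960, AT1G14950, AT1G14940 and AT1G14930, had control means of 5.07, 4.68 and 4.41, near or under the dim level, where a fall could hardly be seen. The same held for AT5G38040 (4.16), beside AT5G38030, and the SABATH gene AT5G37990, near AT5G38020, was at -0.46, not called. The neighbours called higher were AT5G62150, near AT5G62130, at 1.25 (limma adjusted p = 0.00137) and AT3G07090, near AT3G07070, at 0.31 (adjusted p = 0.0441, up to 0.191 with an array left out).

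How many probe sets the rule chose depended on single arrays, chiefly on the chitin arrays. Without chitin replicate 2 it chose 30, of which 24 were among the 58, and without chitin replicate 3 it chose 103, of which 56 were. Without chitin replicate 1 it chose 76 and kept 57. Leaving out a control array kept 35, 42 or 31 of the 58, and leaving out a cellobiose or OGs array kept 48 to 55. Only 7 probe sets were chosen in all 12 cases, and 4 of them had a name: AT3G59340, AT5G38020, AT5G47950 and AT2G24040.

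**Figure D5:**
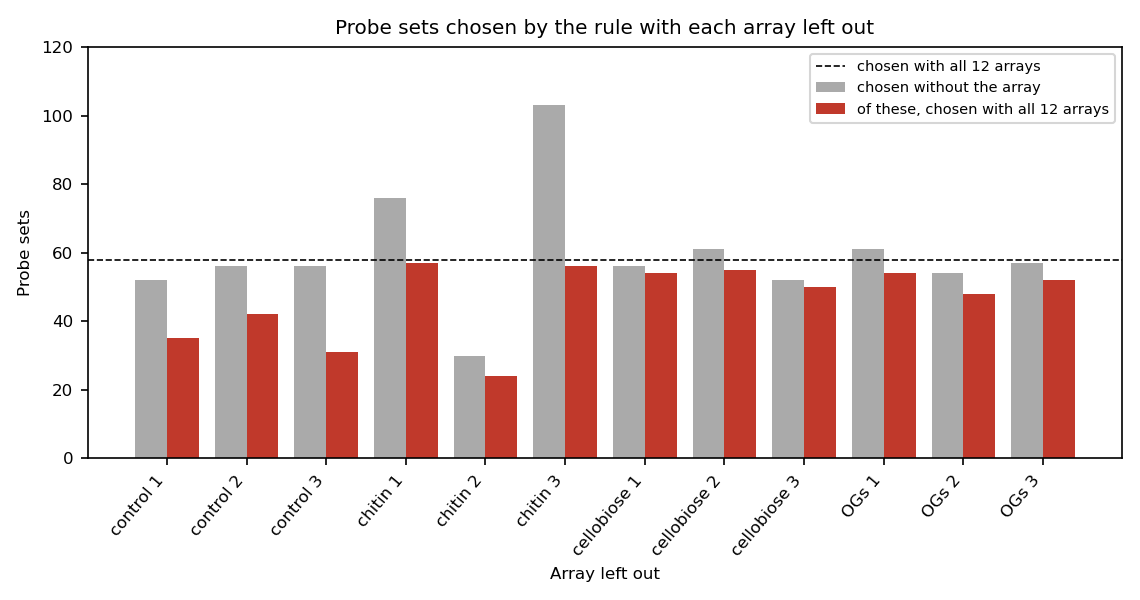
Bars give the number of probe sets that the rule chose when the array named on the horizontal axis was left out (grey) and how many of these were among the 58 chosen with all arrays (red); the dashed line marks 58. The grey bar is lowest without chitin replicate 2 (30) and highest without chitin replicate 3 (103), and the red bar drops to 31 without control replicate 3.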

How the data were processed

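Root RNA was measured on 12 ATH1 arrays, 3 in each of 4 groups. The authors deposited normalized probe set values on the log2 scale. The design text names the GCRMA algorithm and the submitters' processing notes Affymetrix Expression Console; which made these values is not stated, and the sources used here give no versions. Such normalization compresses differences of dim probe sets and assumes that most transcripts do not change.

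Of 22810 probe sets the 64 AFFX controls were left out. The other 22746 were fitted without a brightness filter in R 4.3.3 with limma 3.58.1 (lmFit, eBayes), all groups in 1 model with the replicate number as a block (6 residual degrees of freedom), because the design text takes ratios within sample pairs. P-values were Benjamini-Hochberg adjusted within each of 6 contrasts, and adjusted p under 0.05 was a call. They measure the spread between the biological replicates named in the labels. Where 1 of the groups compared had a mean under log2 5, arrays under 5 were raised to 5 and the change given as a lower bound; dim in both groups, no size is given. In data simulated for chitin against control on 22746 probe sets, 24 of 50 changes of -0.5, 45 of 50 of -1, 48 of 50 of -1.5 and 49 of 50 of -2 were recovered, with 8 false calls. The simulated noise was independent between probe sets, and far fewer probe sets were changed than were called in the real data. The rates of recovered and false calls therefore need not hold for these arrays. Precision is limited by the number of arrays.

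The rule, members and gene lists were chosen with earlier results of these data known. Members with 1 annotated gene could be named, the 12 with the most negative chitin minus control with every array, unlisted probe sets only among the 5 most negative, and the nearest on either side of each limit. Of 40 lists matched by symbol and synonym, 1 held a member (MSRB6, among redox genes). The 12 families were listed by locus after values had been seen, and relatives and neighbours named in the text were picked from them then. The brightest probe set stood for a gene. No sequences are shown. Alternatives were the fit without the block, 2 groups only, quantile normalization, median centring, a mean of at least 5, other limits of the rule and each array left out.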

Additional observations from a re-analysis of the deposited data

How the results depend on the processing

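The replicate numbers did not clearly pair the arrays: of 18 same-number pairs 6 had a correlation of deviations over 0.1 (-0.23 to 0.252), beside -0.363 to 0.445 for different numbers. Without the replicate block 51 of the 58 were called between chitin and control in place of 50, 43 against cellobiose, 41 against OGs, and 2698 of all probe sets in place of 2507. With only the groups compared, 32 of the 58 and 1088 of all probe sets were called between chitin and control, and 1 between OGs and cellobiose, as with quantile normalization and median centring (1 each). Lower and higher calls were 1350 and 1157, but 424 and 664 with only the 2 groups, 1157 and 1300 with quantile normalization and 1108 and 1295 with median centring, so the balance turned under each of these. A chitin limit of -1 chose 7 probe sets, a limit of 0 for the other elicitors 8. Quantile normalization chose 48 and median centring 45, in each case sharing 45 with the 58.

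With each array left out in turn, the calls among the 58 numbered 35 to 54 (chitin minus control), 0 to 0 (cellobiose minus control), 0 to 1 (OGs minus control), 22 to 46 (chitin minus cellobiose), 15 to 44 (chitin minus OGs) and 0 to 1 (OGs minus cellobiose); 1540 to 2640 of all probe sets were called between chitin and control, and 30 to 103 probe sets were chosen. Of the 50 called probe sets 34 kept the call in all 12 cases, and no difference between chitin and control turned sign. Values of single probe sets under the alternatives, those of the 58 and of named relatives, markers and neighbours, numbered 1628. Of these 1393 kept their side of the threshold, 213 lost and 20 gained a call, and 2 changed sign. Both changes of sign were of EXPA7, which was not called (0.07 with all arrays, -0.01 to 0.18 with each array left out). Its negative values came without control replicate 3 or chitin replicate 2.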
